A study of Mus musculus with 8 samples.

Results

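The replication-dependent histone genes are the genes that supply the core histones H2A, H2B, H3 and H4 and the linker histone H1 while DNA is being copied. They were chosen by name, as every gene in the tables whose symbol is H1f1 to H1f5 or begins with H2ac, H2bc, H3c or H4c followed by a number. This gave 64 of 53242 genes, namely 5 H1, 18 H2A, 17 H2B, 12 H3 and 12 H4 genes, and the rule uses the symbol alone. RNA had been sequenced from splenic B cells of C57BL/6 mice aged 8 to 12 weeks after 24 h of culture with IL4 (40 ng/ml) on CD40LB cells, irradiated (120 Gy) feeder cells that display CD40 ligand and secrete the survival factor BAFF. The 4 control mice were Eif4a1+/+ CD23-cre and the 4 knockout (4A1 KO) mice were Eif4a1fl/fl CD23-cre, so that both genotypes carried the cre transgene, which is driven by the promoter of Fcer2a (CD23) and acts in B cells from the late immature stage in the spleen. Eif4a1 encodes the RNA helicase that unwinds the 5′ ends of mRNAs for translation, and the loxP sites flank its exons 2 to 4. In each genotype replicates 1 and 3 were males and replicates 2 and 4 females, with batch A made up of replicates 1 and 2 and batch B of the others. Because the study removed replicate 1 of both genotypes for reduced viability, means and tests are of replicates 2, 3 and 4 (n = 3 per genotype), and the values of replicate 1 are given beside them.

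Chromatin needs a new set of histones each time the genome is copied, and these genes meet that need. Most are short, have no introns and lie in clusters of near-identical copies. Their mRNAs are the known exception among mRNAs of animal cells in that they end in a conserved stem-loop in place of a poly(A) tail. The stem-loop is bound by SLBP, the stem-loop binding protein, and the pre-mRNA is cut just behind it by a complex that includes the U7 snRNP. The mRNAs accumulate in S phase and are destroyed when DNA synthesis stops, so their level is widely read as a sign of cells in S phase. Some of the genes can also be read through the stem-loop to a downstream poly(A) site, which gives a polyadenylated mRNA in cells that do not divide.

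The stem-loop was looked for in the reference genome because it is the feature that defines how these mRNAs end. The motif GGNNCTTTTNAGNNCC, searched on the strand of the gene in the 300 nt behind each stop codon of the GENCODE M39 annotation of GRCm39, was present in 59 of 64 members (92.2%) and in 17 of 21454 protein-coding genes that are not members (0.0792%). In members it began between 21 and 58 nt behind the stop codon (median 30.0). Among the 17 other genes were H1f6, H2aw, H2ax, H2bu1-ps, H2bu2, H2bw2, H3f4 and H4f16, which are histone genes by symbol. H2ac14, which M39 annotates as a pseudogene, had no annotated stop codon and was not searched. The searched members without a match were H2ac22, H2bc21, H3c8 and H4c1. The members below hold the 6 forms of the 16-nt core that occurred, in capitals, with 5 nt on each side, 5′ to 3′ as DNA of the coding strand.
H2ac23, chr13:21995068-21995083, plus strand: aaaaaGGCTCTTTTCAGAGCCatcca
H1f2, chr13:23923495-23923510, plus strand: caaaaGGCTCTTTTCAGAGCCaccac
H3c3, chr13:23929030-23929045, minus strand: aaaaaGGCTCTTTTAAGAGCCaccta
H2ac20, chr3:96127734-96127749, minus strand: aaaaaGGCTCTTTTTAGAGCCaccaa
H4c4, chr13:23765933-23765948, plus strand: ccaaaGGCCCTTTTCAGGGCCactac
H4c9, chr13:22225136-22225151, minus strand: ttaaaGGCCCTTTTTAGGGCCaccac
H4c2, chr13:23941349-23941364, plus strand: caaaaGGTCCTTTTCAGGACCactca
The first form was the most frequent (39 of 59) and was shared by all 5 H1 genes, including H1f2 and H1f1, 14 H2A, 12 H2B and 8 H3 genes. The 11 H4 genes with a match had cores of their own, with a stem of other bases and the same kind of loop.

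The targeted gene, Eif4a1, measured 974, 933, 1142 and 1136 TPM (a transcript level scaled to transcript length and library size) in control replicates 1 to 4 and 712, 700.4, 827 and 843 TPM in 4A1 KO replicates 1 to 4. The genotypes did not overlap, and the log2 fold change in counts was −0.44 ± 0.05 (SE, edgeR's quasi-likelihood test, adjusted p = 0.000115), a value over the whole gene that also counts reads outside the floxed exons. Reads counted on genes ranged from 31727557 to 43210858 per library. Members took very few of them, between 1034 and 2586 counts per control library and between 370 and 620 per 4A1 KO library, and 6 members had no count in any library. Whether poly(A) RNA was selected or rRNA removed before library construction is not given in the sources used here. The low counts are therefore values of the histone RNA that these libraries captured. In bulk samples, fewer cells in S phase and less histone mRNA per cell cannot be told apart. Among the libraries, 4A1 KO replicate 4 and control replicate 1 stood apart for these genes, the former as the highest of its genotype and the latter as the lowest, and values that move by over 1.5 times without replicate 4 are given with and without it.

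Histone mRNA was lower in 4A1 KO B cells. The summed TPM of all 64 members was 173, 404, 294 and 495 in control replicates 1 to 4 and 27.8, 36.5, 32.1 and 121 in 4A1 KO replicates 1 to 4. Every 4A1 KO library lay below every control library. Over replicates 2 to 4 the sum averaged 398 ± 100.4 TPM for the controls and 63.2 ± 50.1 TPM for 4A1 KO (SD, n = 3 each), 6.29-fold lower. Within the pairs of equal batch and sex the sum was 6.22-fold lower in replicate 1, 11.1-fold in replicate 2, 9.16-fold in replicate 3 and 4.09-fold in replicate 4. Leaving out replicate 4 raised the ratio of the means to 10.2-fold. Members took a mean of 0.00503% of all counted reads in control and 0.00115% in 4A1 KO.

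The families differed in how much they contributed and in the size of their difference. H2A genes held most of the summed TPM in the control libraries, between 63.6% and 83.6%. In 4A1 KO they held 21.6%, 39.8%, 37.5% and 76.2% in replicates 1 to 4, most of it in replicate 4 only. Summed H2A averaged 316 ± 96.3 TPM in control and 39.6 ± 45.6 in 4A1 KO, 7.97-fold lower. The 4A1 KO mean of H2A rested on replicate 4, with 92.3 TPM against 6.00 to 14.5 TPM in the other three libraries, and without replicate 4 the ratio was 20.1-fold. H3 genes averaged 30.5 ± 5.07 TPM against 5.44 ± 2.08, 5.60-fold lower, and H2B genes 16.02 ± 0.582 TPM against 4.30 ± 1.18, 3.73-fold lower. H4 genes averaged 25.3 ± 2.71 TPM against 8.30 ± 2.21, 3.05-fold lower. H1 genes differed least, with 10.1 ± 1.30 TPM against 5.55 ± 0.476, 1.81-fold lower, and replicate 1 of the 2 genotypes differed by 1.08-fold only (7.91 against 7.31 TPM). The small H1 difference rests on H1f2, which averaged 4.66 TPM in control and 4.42 in 4A1 KO. H1f1, H1f3, H1f4 and H1f5 were 6.21-, 3.87-, 3.10- and 6.10-fold lower in mean TPM. No order of the families was tested.

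**Figure D1:**
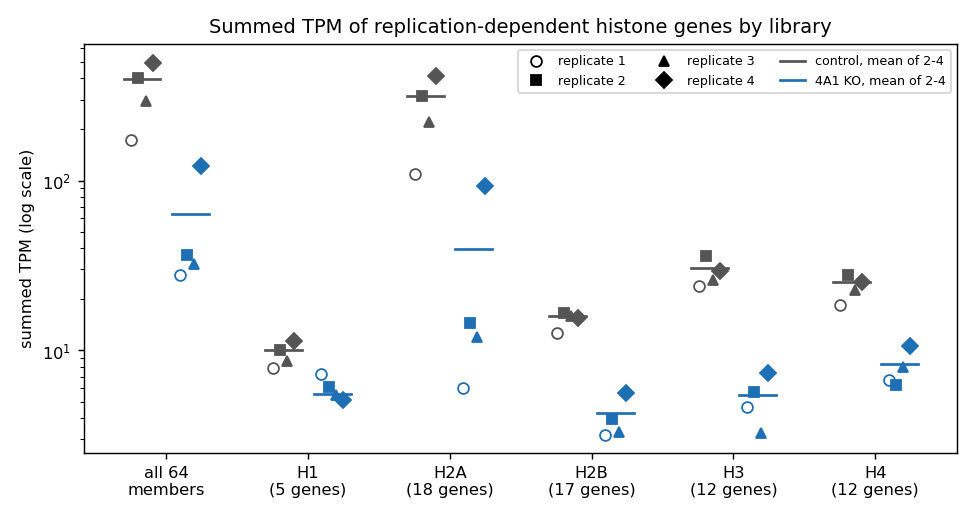
Summed TPM (log axis) of all 64 members and of each family in every library, control in grey and 4A1 KO in blue, with the replicate number as the symbol, replicate 1 open, and a line at the mean of replicates 2 to 4. In every family the 4A1 KO libraries sit below the control libraries, H1 by the smallest margin, and 4A1 KO replicate 4 is the highest 4A1 KO library of H2A at 92.3 TPM.

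Individual members were tested in the raw counts with edgeR and in log2(TPM + 1) with limma, each fitted on all genes with batch and sex, and a call needed both an adjusted p under 0.05 and a log2 fold change beyond ±0.5. In counts 22 members passed the filter on low values, of which 20 fell, 1 rose (H2bc21) and 1 (H1f2) was not called. Of all 14218 genes tested in counts, 13.7% fell and 11.6% rose. In TPM 28 members had a mean of at least 1, of which 27 fell and H1f2 was not called, beside 11.8% of 12976 genes that fell and 8.42% that rose. Some of these TPM may rest on reads shared between copies, so the 27 calls are not all separate results. For instance, H2ac22 had 0, 0, 1 and 1 counts in control, and 85.8% of its 50-base windows occur in other members. The readouts share their libraries and alignments and are not independent, and 17 members fell in both. The filters kept the genes that were abundant in control, since 10 of the 22 members tested in counts exceeded the filter's 0.242 CPM (counts scaled to library size) in no 4A1 KO library, and 14 of the 28 tested in TPM had a 4A1 KO mean below 1. The remaining 32 members were tested in neither readout. The median log2 fold change was −2.60 over the 22 members and 0.01 over all genes in counts, and −1.45 over the 28 members and 0.00 over all genes in log2(TPM + 1), a scale on which low genes show smaller differences.

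All members, tested or not, can be placed by whether their libraries overlapped. In TPM the 4 4A1 KO libraries lay below the 4 control libraries in 48 members, above them in 2 (H2bc21 and H3c13) and overlapped in 14. The 14 include 3 members at 0 TPM in every library, so 78.7% of the 61 members with any TPM were lower without overlap. Of all genes with any TPM, 11% were lower without overlap and 9.48% higher. In CPM 29 members were lower without overlap and 1 (H2bc21) was higher, beside 13.6% and 11.7% of all genes with a count. H3c13 was listed at 0 TPM in the controls and at 0.0729 to 0.285 TPM in 4A1 KO, whereas its counts were 12, 8, 7 and 9 in control and 4, 1, 0 and 2 in 4A1 KO, so that the readouts gave opposite orders.

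**Figure D2:**
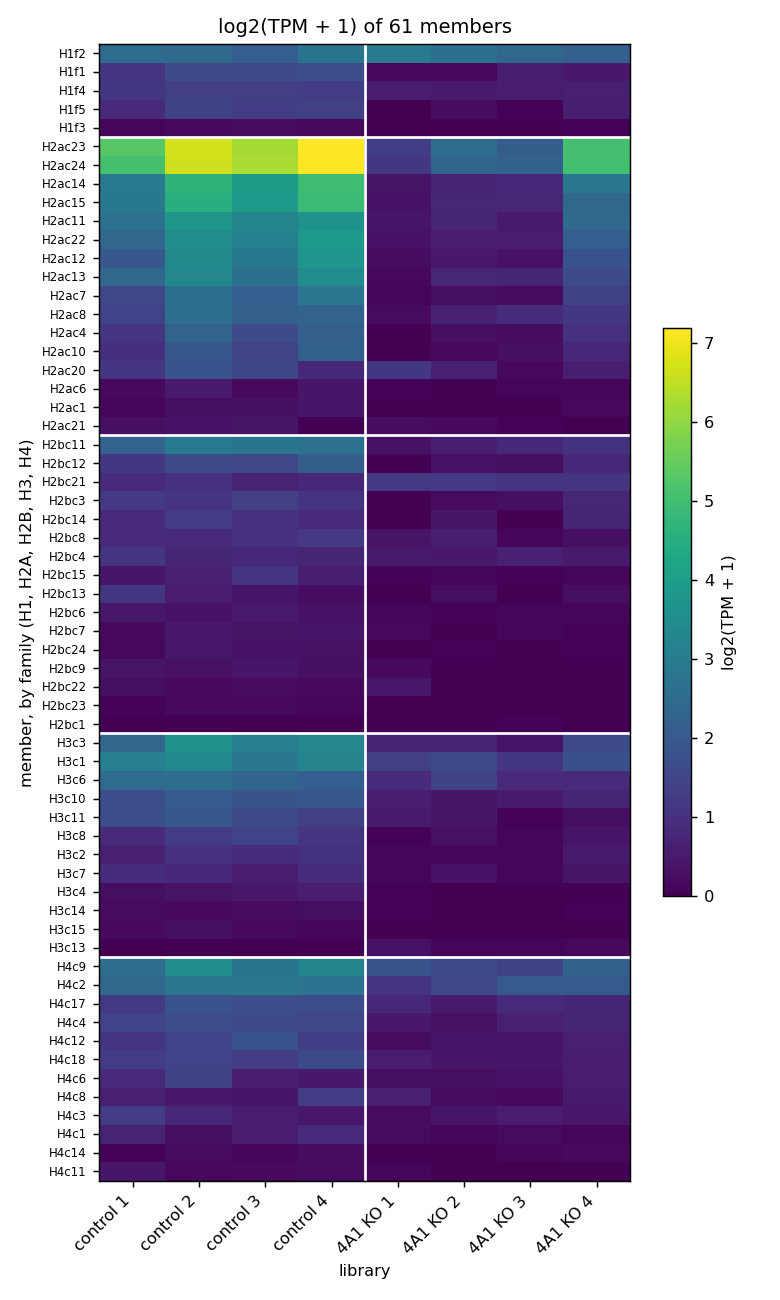
Heat map of log2(TPM + 1) for the 61 members with any TPM (rows, by family and then by level) in the 8 libraries (columns), with white lines between families and genotypes. H2ac23 and H2ac24 are the brightest rows, most rows are darker in 4A1 KO, and the H1f2 and H2bc21 rows are not.

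Core histone H2A pairs with H2B in the nucleosome, and its genes gave the highest levels of any family. H2ac23 (chr13:21994635-21995114, plus strand, 1 exon) measured 39.2, 103.03, 74.3 and 145 TPM in control replicates 1 to 4 and 1.51, 4.89, 3.31 and 32.4 TPM in 4A1 KO. Every 4A1 KO library was below the lowest control, and replicate 4 was the highest library of both genotypes. Its raw counts were 140, 364, 266 and 515 in control and 5, 18, 5 and 123 in 4A1 KO, a log2 fold change of −3.26 ± 0.44 (SE, edgeR, adjusted p = 0.00034). Without replicate 4 it was −4.74. H2ac24 (chr13:22017196-22017677, minus strand, 1 exon) encodes H2A as well and measured 33.2, 101, 75.9 and 143 TPM in control and 1.24, 4.11, 3.64 and 31.4 TPM in 4A1 KO. Its log2 fold change in log2(TPM + 1) was −3.51 ± 0.40 (limma, adjusted p = 0.00135), close to the −3.47 ± 0.39 of H2ac23. Without replicate 4 these were −4.19 and −4.14.

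The counts of H2ac24 differed from its TPM. They were 2, 106, 94 and 223 in control and 0, 0, 0 and 4 in 4A1 KO, lower than those of H2ac23 in every library. H2ac24 took between 1.41% and 30.2% of the counts of the pair in control and at most 3.15% in 4A1 KO, but between 45.2% and 52.4% of its TPM in all 8 libraries. No 50-base window of either gene was found only once in the genome, and 93.1% of the windows of H2ac24 were also in H2ac23. How the count table and the TPM divided reads that map to both copies is not stated, so the split between the copies is uncertain. Their sum does not depend on this split. Together they measured 142, 470, 360 and 738 counts in control and 5, 18, 5 and 127 in 4A1 KO, which was 28.4-, 26.1-, 72.0- and 5.81-fold lower in replicates 1 to 4. Their summed TPM gave 26.3-, 22.7-, 21.6- and 4.51-fold in the same order.

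**Figure D3:**
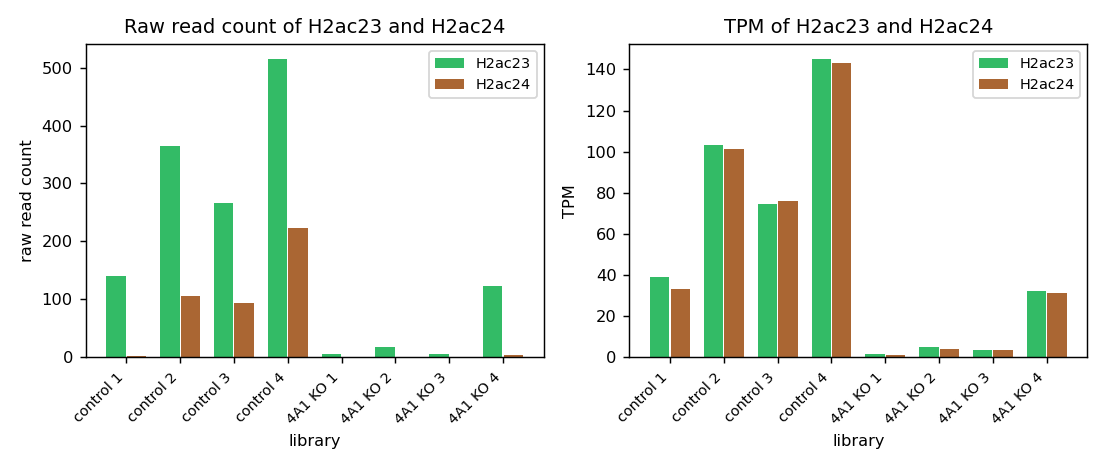
Raw read counts (left) and TPM (right) of the near-identical copies H2ac23 and H2ac24 in the 8 libraries, 1 bar per gene. The counts of H2ac24 are below those of H2ac23 in every library, by 2 against 140 in control replicate 1, whereas the TPM bars are nearly level (33.2 against 39.2 TPM there), and both readouts are low in 4A1 KO replicates 1 to 3.

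H2ac11 (chr13:22226630-22227114, minus strand) had 17, 209, 132 and 343 counts in control and 1, 2, 0 and 12 in 4A1 KO, a log2 fold change of −5.60 ± 0.37 (edgeR, adjusted p = 1.497e-05), and of −7.20 without replicate 4, then resting on 2 counts in 4A1 KO. Its TPM of 5.44, 13.03, 8.51 and 11.9 in control and 0.337, 0.690, 0.437 and 4.54 in 4A1 KO did not overlap either. H2ac12 (chr13:22219334-22219738, minus strand) had 0, 76, 58 and 149 counts in control and no count in any 4A1 KO library. Against a floor of 3 counts per library, H2ac12 was at least 30.3-fold lower over replicates 2 to 4. TPM were nevertheless given to H2ac12 in 4A1 KO, 0.187, 0.398, 0.286 and 2.51 beside 2.90, 9.42, 6.54 and 12.4 in control. Only 9.27% of its windows occurred once in the genome. Control replicate 1, with no count, overlapped the 4A1 KO libraries. The other H2A genes were measured from 0 to 29.8 TPM per control library. All 7 H2A genes tested in counts and all 13 tested in TPM fell, H2ac14, H2ac15, H2ac8, H2ac22, H2ac13, H2ac7, H2ac4, H2ac10 and H2ac20 among them. Some had almost no counts, with 0, 0, 1 and 1 in control for H2ac22 and 0, 4, 0 and 0 for H2ac7. Of their windows 14.2% and 32.9% occurred once in the genome, so their TPM may rest on reads of other copies. The smallest TPM difference among the 13 was that of H2ac20 on chromosome 3 (−0.91 ± 0.24, limma, adjusted p = 0.0213). Its libraries overlapped between genotypes, and its call was lost without replicate 3 (adjusted p = 0.0944, limma) and with no filter on low TPM.

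H2B genes were low in both genotypes. H2bc11 (chr13:22227384-22227846, plus strand), which faces H2ac11, was the most abundant at 3.80, 6.73, 5.98 and 5.42 TPM in control and 0.275, 0.533, 0.762 and 1.06 TPM in 4A1 KO. The groups did not overlap, and its counts of 34, 59, 52 and 48 against 1, 3, 6 and 9 gave a log2 fold change of −3.08 ± 0.37 (edgeR, adjusted p = 0.000165). H2bc12, beside H2ac12, measured 1.19, 2.17, 1.95 and 3.35 TPM in control and 0.0340, 0.275, 0.213 and 0.780 TPM in 4A1 KO, a difference of −1.30 ± 0.11 in log2(TPM + 1) (limma, adjusted p = 0.00079). It was not tested in counts. The remaining H2B genes stayed at or below 1.56 TPM in each library.

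H2bc21 (chr3:96128435-96131054, plus strand) went the other way. It is annotated as a single exon of 2620 bases, several times the length of a histone coding sequence, and no stem-loop motif was found behind its stop codon. Its counts were 49, 60, 36 and 43 in control and 62, 70, 62 and 65 in 4A1 KO, and its TPM 0.852, 1.05, 0.621 and 0.737 against 1.34, 1.28, 1.11 and 1.11. The 4A1 KO libraries lay above the controls without overlap in TPM and CPM. The log2 fold change in counts was 0.56 ± 0.21 (edgeR, adjusted p = 0.0459), just past both thresholds, and the call was lost without the replicate block (adjusted p = 0.129), under DESeq2 (adjusted p = 0.266) and on leaving out any of replicates 2, 3 and 4 (adjusted p between 0.0526 and 0.202).

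H3 forms the centre of the nucleosome with H4. H3c3 (chr13:23928956-23929585, minus strand) measured 4.16, 11.8, 7.65 and 9.08 TPM in control and 0.633, 0.618, 0.333 and 2.08 TPM in 4A1 KO, and its counts were 32, 111, 75 and 94 against 4, 4, 0 and 22. The log2 fold change in counts was −3.47 ± 0.56 (edgeR, adjusted p = 0.000837), and of the alternatives run only DESeq2 with the shrinkage that the study used did not call it (−0.53, adjusted p = 0.0917). Replicate 4 held 22 of the 4A1 KO counts, and without it the log2 fold change was −5.43. H3c1 (chr13:23945836-23946369, minus strand) measured 7.55, 9.31, 6.16 and 8.38 TPM in control and 1.59, 2.07, 1.22 and 2.35 TPM in 4A1 KO. The libraries of H3c1 did not overlap, and its counts of 60, 77, 52 and 77 against 8, 14, 8 and 19 gave −2.29 ± 0.26 (edgeR, adjusted p = 0.000117). H3c6 and H3c10 fell in both readouts and H3c11 in TPM. Of the 12 H3 genes, 11 were lower in TPM without overlap, and H3c13 was the exception given above.

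Summed H4 differed least of the core histone families in TPM, whereas in counts H2B did (1.97-fold lower against 3.32-fold for H4). The H2B count ratio rests on H2bc21, the member that rose. H2bc21 had 70, 62 and 65 counts in 4A1 KO replicates 2 to 4, where all H2B genes together averaged 90.7. The place of H2B in counts is thus set by that gene and does not describe the other H2B genes. H4c9 (chr13:22224806-22225532, minus strand) measured 4.90, 10.4, 5.91 and 8.69 TPM in control and 2.65, 2.06, 1.66 and 3.69 TPM in 4A1 KO. Its counts were 58, 134, 76 and 117 against 30, 25, 21 and 50, a log2 fold change of −1.75 ± 0.25 (edgeR, adjusted p = 0.000427). H4c2 (chr13:23940996-23941392, plus strand) measured 4.25, 6.06, 6.33 and 5.66 TPM in control and 1.10, 1.97, 3.11 and 3.07 TPM in 4A1 KO, and its counts of 37, 50, 59 and 56 against 7, 15, 25 and 26 gave −1.29 ± 0.25 (edgeR, adjusted p = 0.00211). That was the smallest decrease of any member called in counts, and its libraries did not overlap. H4c4 and H4c17 also fell in both readouts, H4c17 with few counts (3, 13, 12 and 15 against 1, 1, 5 and 3) and a call in counts that was lost under both DESeq2 settings, glmTreat and without replicate 2 (adjusted p = 0.0527, edgeR), and H4c12 and H4c18 in TPM. H4c3, H4c6, H4c8 and H4c14 overlapped between the genotypes.

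H1 binds the DNA that links nucleosomes. H1f2 (chr13:23922791-23924350, plus strand) was its most abundant gene and the only tested member that was called in neither readout. It measured 4.73, 4.59, 3.45 and 5.93 TPM in control and 6.69, 5.32, 4.37 and 3.58 TPM in 4A1 KO, and its counts were 160, 150, 116 and 201 against 183, 166, 143 and 122. The genotypes overlapped. The log2 fold change in counts was −0.05 ± 0.20 (edgeR, adjusted p = 0.845) and changed sign with replicate 1 included (0.09, adjusted p = 0.733) or replicate 4 left out (0.28, adjusted p = 0.252). H1f1 (chr13:23947649-23948389, plus strand), which has the same stem-loop core, measured 1.12, 2.101, 2.096 and 2.34 TPM in control and 0.145, 0.113, 0.533 and 0.407 TPM in 4A1 KO. Its counts of 18, 33, 34 and 38 against 1, 1, 8 and 6 gave −2.76 ± 0.44 (edgeR, adjusted p = 0.000843). H1f3, H1f4 and H1f5 also fell in counts, with log2 fold changes of −2.43, −1.62 and −2.91 (−3.32 for H1f3 and −4.47 for H1f5 without replicate 4). H1f2 thus made up most of the H1 counts in 4A1 KO, 166 of 186 in replicate 2.

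**Figure D4:**
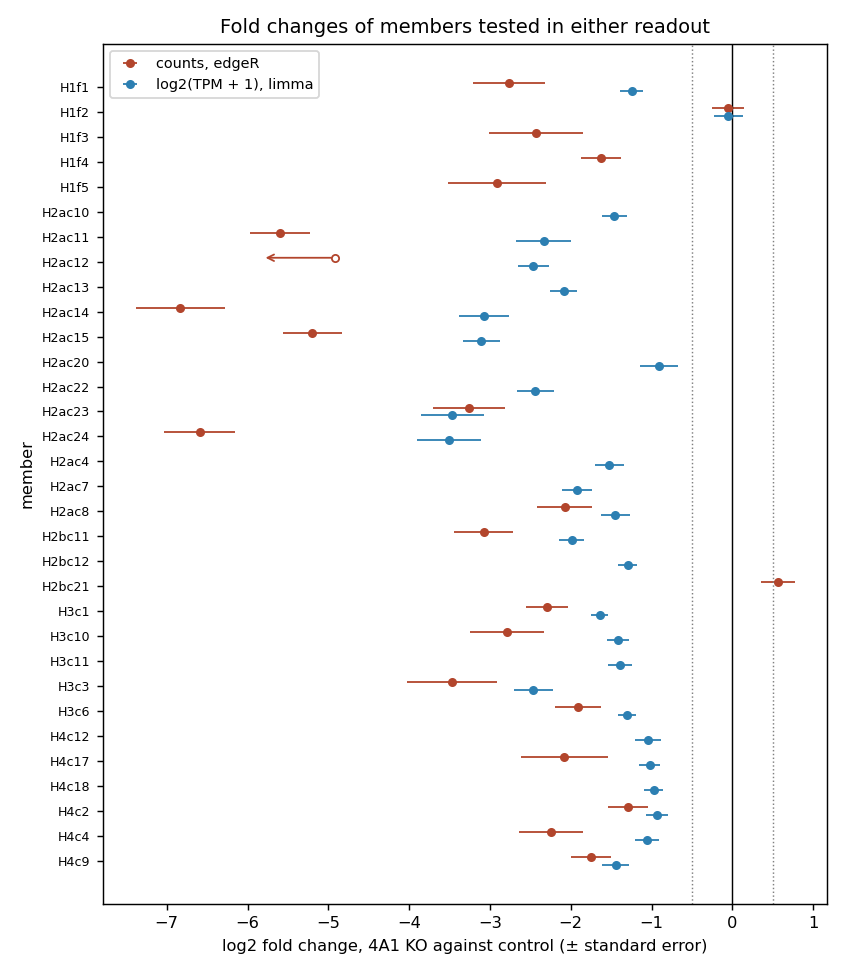
Log2 fold change of 4A1 KO against control (replicates 2 to 4, bars are standard errors) of the 32 members tested in either readout, counts in red and log2(TPM + 1) in blue, with dotted lines at ±0.5. The open circle with an arrow is the bound for H2ac12, which had no count in 4A1 KO, and the count estimate of H2ac14 rests on 1 count in 4A1 KO. H1f2 lies at 0 in both readouts and H2bc21 is the only member to the right of it.

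Position in the genome separated the members into 3 clusters with gaps of over 1000000 bases between them. The cluster at chr13:21899933-22227846 holds 24 members, H2ac23 and H2ac24 among them, and its summed TPM averaged 331 ± 94.8 in control and 43.3 ± 46.2 in 4A1 KO, 7.63-fold lower (12.4-, 18.2-, 15.6- and 4.41-fold in replicates 1 to 4, and 17-fold between means without replicate 4). The cluster at chr13:23715220-24118834 holds 30 members, with H1f2, H3c1, H3c3 and H4c2, and averaged 63.8 ± 8.37 against 18.0 ± 3.80 TPM, 3.54-fold lower (3.11-, 4.35-, 3.51- and 2.97-fold). The 10 members on chromosome 3, at chr3:96127181-96177448, were low in TPM in both genotypes with 3.14 ± 1.21 against 1.85 ± 0.369 TPM. Their sum overlapped, at 2.61, 4.38, 3.09 and 1.96 TPM in control and 3.08, 2.14, 1.44 and 1.97 TPM in 4A1 KO. H2bc21 lies in this cluster and was higher in 4A1 KO. In CPM H2bc18, H3c13 and H3c14 were lower in 4A1 KO without overlap, and the other members of the cluster overlapped. H2ac18 and H2bc18 were at 0 TPM in every library but not in counts. H2ac18 had 5, 7, 5 and 1 counts in control and 0, 3, 1 and 0 in 4A1 KO. H2bc18 had 2, 6, 16 and 6 against 0, 0, 0 and 0. The clusters were not tested against each other.

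The annotated ends of the transcripts also varied. Of the 59 members with a stem-loop, 23 have a transcript annotated to end more than 100 nt past it, as a polyadenylated read-through mRNA would. The other 36 end closer, and some of these before the stem-loop, such as H2ac10 (−70 nt) and H1f5 (−46 nt). Distances are along the genome, to the farthest annotated end. These ends are those of GENCODE M39, a later release than the Ensembl annotation behind the deposited counts and TPM. The long group includes H1f2 (840 nt past the stem-loop), H4c3 (454 nt), H4c14 (1257 nt) and H2bc4 (9518 nt, introns included, in a gene with 3088 exon bases). These 4 had the highest ratios of mean 4A1 KO to mean control TPM among the members with a stem-loop and any control TPM, between 0.579 and 0.950. H3c13 and H2bc1, which are among the 36, were listed at 0 TPM in control and have no ratio. Apart from H1f2 they rest on few reads. H4c3 had 5, 5 and 4 counts in control replicates 2 to 4 and 4, 5 and 4 in 4A1 KO, H4c14 had 5, 2 and 6 against 0, 2 and 4, and H2bc4 had 9, 12 and 7 against 5, 12 and 7. In replicate 1, which is not in the means, H4c3 measured 1.36 TPM in control and 0.157 in 4A1 KO. The median ratio was 0.251 over the 23 long members and 0.164 over the 31 short members with any control TPM, with ranges of 0.0393 to 0.950 and 0.0878 to 0.451. Their summed TPM was 31.7 in control and 12.0 in 4A1 KO for the long members, and 329 and 45.7 for the short. Without replicate 4 the short members summed to 286 and 20.2 TPM and the long to 31.5 and 11.4 TPM. The ranges overlap, some long members such as H3c4 were among the lowest ratios, and no test was made because the 100-nt limit was set after the values had been seen.

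**Figure D5:**
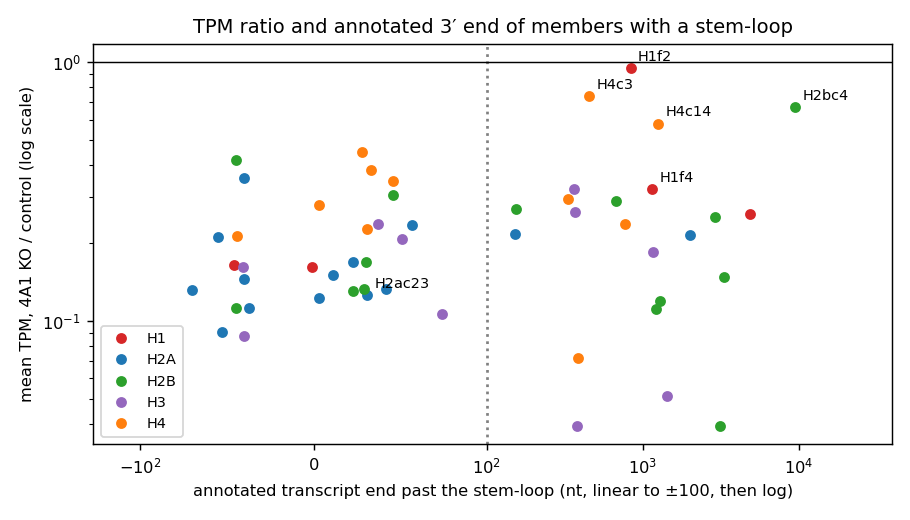
Ratio of mean TPM in 4A1 KO to control (log axis, replicates 2 to 4) against the annotated transcript end relative to the stem-loop. The end is the farthest one, in nt on the genome with introns included (linear to ±100 and then logarithmic). Members with a stem-loop and any control TPM are shown, 1 point per gene. All ratios are below 1 (black line), and those above 0.5 (H1f2, H4c3, H2bc4 and H4c14) lie right of the dotted line at 100 nt.

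Of 16 genes for transcription, processing or decay of histone mRNA, 3 fell and 0 rose, beside the 13.7% and 11.6% of all genes, with a median log2 fold change of −0.12 beside 0.01 over all genes. Slbp, the stem-loop binding protein, measured 124, 175, 151 and 194 TPM in control and 73.5, 80.4, 87.0 and 111 TPM in 4A1 KO, and fell by 0.93 ± 0.06 on the log2 scale in counts (edgeR, adjusted p = 1.526e-05). Casp8ap2 (FLASH), a subunit of the cleavage machinery, fell by 0.57 ± 0.05 (edgeR, adjusted p = 4.775e-05), and Zfp473, a binding partner of the U7 snRNP, fell from few counts. Npat, the coactivator of histone gene transcription, had a log2 fold change of −0.39 ± 0.06 (edgeR, adjusted p = 0.000763), and Cpsf2, in the cleavage complex, of −0.32 ± 0.05 (edgeR, adjusted p = 0.000562), both short of the fold threshold. Sympk, Srrt, Upf1 and Lsm1 lay between −0.09 and −0.02, and Tut7 (0.33), Cstf2 (0.20), Hinfp (0.11) and Cpsf3 (0.09) lay above 0, none of them called.

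Some mRNAs for histone chaperones and most for the replication machinery fell. Of 13 histone chaperones and assembly factors 6 fell and 0 rose by the thresholds, beside 13.7% and 11.6% of all genes, with Asf1a (0.35 ± 0.06) and Ipo4 (0.23 ± 0.04) above 0 but short of the fold threshold. The 6 that fell included Chaf1b (−1.60 ± 0.11), Chaf1a (−1.19 ± 0.08) and Hat1 (−0.84 ± 0.06), the first subunits of the CAF-1 chaperone and the last an acetyltransferase of new H4 (edgeR, adjusted p of at most 1.775e-05 each). Of 18 S phase genes 16 fell and 0 rose, beside the same shares of all genes, with a median log2 fold change of −1.001 beside 0.01 over all genes, for instance the helicase subunits Mcm7 (−1.12 ± 0.08) and Mcm4 (−0.87 ± 0.06). Their summed TPM was 3268, 4216, 3781 and 4436 in control and 1588, 1967, 2040 and 2754 in 4A1 KO. The lowest control library (replicate 1) and the highest 4A1 KO library (replicate 4) were those of the histone sum. The S phase sum was 2.06-, 2.14-, 1.85- and 1.61-fold lower in replicates 1 to 4, and the histone TPM per 100 TPM of S phase genes was 5.30, 9.59, 7.78 and 11.2 in control and 1.75, 1.85, 1.57 and 4.396 in 4A1 KO. The histone sum was thus lower in 4A1 KO in relation to the S phase genes also, without overlap.

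Histone variants that are also made outside S phase, most of them from polyadenylated mRNAs, moved in both directions. Of 10 tested, 4 fell and 2 rose, beside 13.7% and 11.6% of all genes, and the summed TPM of all 11 was level between genotypes, with 2184 ± 176 for control and 2167 ± 105.3 for 4A1 KO (SD, n = 3 each). H1f0, a linker histone of resting cells, rose by 1.22 ± 0.12 on the log2 scale and H2aj by 0.66 ± 0.06 (edgeR, adjusted p = 5.664e-05 and 3.061e-05). H1f0 measured 7.77, 6.64, 3.89 and 4.13 TPM in control and 13.7, 12.99, 10.47 and 9.53 TPM in 4A1 KO, so its lowest 4A1 KO library exceeded its highest control. The centromeric H3 variant Cenpa fell by 1.40 ± 0.13 and H2az1 by 0.65 ± 0.06 (edgeR, adjusted p = 4.387e-05 and 6.097e-05). H3f3b, which encodes the replacement histone H3.3, was the most abundant at 596 to 726 TPM in control and 711 to 937 TPM in 4A1 KO, with a log2 fold change of 0.32 ± 0.05 short of the fold threshold. H2ax, a variant whose gene also holds a stem-loop motif, measured 81.5, 119, 86.8 and 105.4 TPM in control and 79.6, 77.8, 80.9 and 82.2 TPM in 4A1 KO (−0.35 ± 0.09, edgeR, adjusted p = 0.00895), also short of it, with libraries that overlapped in TPM but not in CPM.

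Other measures moved with genotype and their part in the histone result was not tested. Rpph1, the RNA of RNase P, likewise has no poly(A) tail, and its counts were 362, 641, 480 and 410 in control and 11, 32, 39 and 53 in 4A1 KO (log2 fold change −3.56 ± 0.22, edgeR, adjusted p = 1.171e-05). It was the only one of 7 such RNAs in the tables with enough counts for a test. In log2(TPM + 1) Rpph1 fell by 3.37, and the signal recognition particle RNAs Rn7s1 and Rn7s2, which also lack a tail, were tested and not called (−0.01 and 0.33, limma, adjusted p = 0.946 and 0.142). Few reads were counted on either. Rn7s1 had 0, 0, 0 and 0 counts in control and 0, 1, 3 and 0 in 4A1 KO. Rn7s2 had 1, 0, 5 and 0 against 0, 0, 1 and 0. Among B cell markers 4 of 8 fell, beside 13.7% of all genes, Cd79b, Cd22 and Cr2 among them, and the summed CPM of the list overlapped, from 6701 to 7804 in control and 7043 to 7422 in 4A1 KO. Markers of other cells were low in both genotypes, with summed CPM of 9.33 to 42.8 in control and 14.2 to 26.9 in 4A1 KO for 9 fibroblast genes, which feeder cells would bring (1 fell, Col3a1, and 1 rose, Fn1), 0.456 to 1.11 and 0.347 to 0.780 for 6 T cell genes (0 called) and 4.12 to 8.17 and 7.28 to 8.95 for 6 myeloid genes (Adgre1 rose). Of these genes 2 fibroblast, 1 T cell and 2 myeloid markers were at 0 counts in all 8 libraries. The lowest and highest control library of the fibroblast sum lay on both sides of the 4A1 KO libraries.

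The genotype effect on members was compared between sexes and batches as an interaction in all 8 libraries. None of 18 members tested passed an adjusted p under 0.05 in edgeR for either, and over all 14211 genes 0 passed for sex and 1 for batch. At an unadjusted p under 0.05 there were 2 members for sex, H2ac23 and H1f5, whose difference of log2 fold changes, male minus female, was −2.37 ± 0.83 and −4.81 ± 1.78 (SE, adjusted p of 1 each), and 0 for batch. With all 8 libraries, 16 of the 18 members fell in counts and H2bc21 rose, beside 14.2% and 11.4% of 14211 genes. In TPM 27 fell and 0 rose in the 8 libraries, beside 11.9% and 7.52% of 12996 genes.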

How the data were processed

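RNA-seq of 8 libraries was analysed. Per the paper, the authors trimmed reads with Trim Galore 0.6.6, mapped them to GRCm39 with HISAT2 2.1.0, counted them on merged isoforms with Seqmonk, strand-specifically, and deposited these raw counts without normalization. The deposited TPM were calculated by the authors with StringTie 2.1.1. How reads that map to several copies were counted, and whether poly(A) RNA was selected, are not given in the sources used here. No per-sample column was left unused.

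Counts were tested in R 4.3.3 with edgeR 4.0.16 (filterByExpr with a minimum count of 10, TMM, quasi-likelihood) and log2(TPM + 1) with limma 3.58.1 for genes whose TPM averaged at least 1, both two-sided over all genes with Benjamini-Hochberg adjustment, in replicates 2 to 4 with batch and sex as covariates, which equal the replicate number as a block. The labels give batch and sex, so that same-numbered libraries are paired, and their deviations from the genotype means correlated across genes (Pearson's r 0.593, 0.502 and 0.433). Depth was 31727557 to 43210858 counts per library, and standard deviations are between libraries. SE in counts is the absolute log2 fold change divided by the square root of the quasi-likelihood F. Sequences, coordinates and unique 50-base windows came from the GRCm39 genome with GENCODE M39, to which all 64 members matched. The code was tested on simulated data.

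Members and gene lists were chosen with earlier results of these data known. Values per library are given for the 2 members of each family with the highest mean TPM, for the 5 largest called decreases and increases in counts among members averaging 1 CPM or more, and for Eif4a1. From the lists the 3 genes with the smallest adjusted p are named, and Slbp, Npat, H2az1, H2ax and H3f3b. Of the genes chosen from the lists, 1 is not reported here. Other members and listed genes were named after their values had been seen. Alternatives were other normalizations and filters, DESeq2 1.42.0, a pseudocount of 0.1, no replicate block, all 8 libraries, each replicate left out and glmTreat.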

Additional observations from a re-analysis of the deposited data

Results flagged for a closer look

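In each group of 4 libraries, the gap between the highest or lowest library and its neighbour was divided by the range of the group and compared with Dixon's 95% critical value. Of 63 groups examined, 10 exceeded it, where chance gives about 1 in 20, or 3.1. Of the 10, 9 were 4A1 KO groups in which replicate 4 was the highest library. For TPM in 4A1 KO the ratio was 0.907 for the summed TPM of all members, 0.901 for the summed TPM of H2A, 0.891 for H2ac23, 0.905 for H2ac24, 0.909 for H2ac12 and 0.916 for H2ac11. These share 1 library and near-identical copies, so they are not separate events. For CPM in 4A1 KO the ratio was 0.875 for H2ac23 (0.158, 0.468, 0.122 and 2.88 CPM in replicates 1 to 4), and 1 for H2ac24 and for H2bc12, each with 4 counts in replicate 4 and 0 in the other libraries. The remaining group was H1f1 in control, with a ratio of 0.85, where replicate 1 was low at 0.451 CPM against 0.815 to 0.879 in the others. The 4A1 KO replicate 4 library was a batch B female, and the S phase genes were also highest there among 4A1 KO libraries. The part of the S phase genes in the H2A values was not tested. For H2ac23 the estimated difference of the genotype effect on the log2 scale was −2.37 ± 0.83 for male minus female and 1.45 ± 0.87 for batch B minus batch A, neither past the threshold (SE, edgeR, adjusted p of 1 and 0.999).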

How the results depend on the processing

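The decrease of the members kept its direction under every alternative run. The number that fell in counts was 20, beside 13.7% of all genes. It was 20 to 22 on leaving out each replicate, and 21 and 19 with DESeq2 without and with shrinkage. With all 8 libraries it was 16, beside 14.2% of all genes. It was 29 with no filter beyond 1 count. Asking for at least 1 CPM in 3 libraries left fewer members to test, and 13 fell. In TPM the number that fell was 27, beside 11.8% of all genes, and 25 to 27 on leaving out each replicate. The share of all genes is not given for the other settings, so those numbers are not compared with it. The ratio of summed TPM, 6.29-fold lower, ranged from 5.15 to 10.18 on leaving out each replicate, with the highest value without replicate 4, was 6.28 in all 8 libraries, and was 4.39 as a share of raw counts. The number that rose in counts was 1, H2bc21, and it was 0 under both DESeq2 settings and under glmTreat, and 0 to 0 on leaving out each replicate. Without the replicate block the number that rose was 0, the number that fell remained 20 in counts and 27 in TPM, and the pairing changed no other call of these members. The log2 fold change of H1f2 reversed to 0.0864 with all 8 libraries, 0.0992 with all 8 and the replicate block, and ranged from −0.2332 to 0.275 on leaving out each replicate (0.275 without replicate 4), and was called in none. Of 151 values of the members with values per library under the alternatives, 140 kept direction and call, 8 lost the call (7 of H2bc21, 1 of H3c3) and 3 reversed (H1f2). The cause of these changes was not tested. Depth limits single members, since 42 had too few counts for the test, and copies of the same sequence cannot be told apart.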
